A study of Mus musculus with 12 samples.

Results

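The E2F factors and their partner pocket proteins were followed as 10 genes, E2f1 to E2f8, Rbl1 and Rbl2, taken by symbol from a table of 24421 genes. All 10 were in the table and all 10 passed the filter on low counts, as did 15220 genes in all. The libraries were made from mouse embryonic fibroblasts (MEFs) of 2 lines, Null and TFEB/TFE3 DKO, each as a control and after 8 hr in 100 µM etoposide, with 3 libraries in each of the 4 groups. Null is the name the labels give to the line that the study's text calls WT, and the DKO line had both Tfeb and Tfe3 edited with CRISPR-Cas9. Etoposide is a topoisomerase II poison that leaves DNA double-strand breaks. The labels name no vehicle for the controls, while the methods name DMSO. Each genotype is a single line, so the edit and other differences between the lines cannot be told apart. The study's text describes the MEFs as immortalized with SV40, whose large T antigen is known to bind pocket proteins and p53. RNA levels of the E2F network were therefore measured in cells in which its protein control may differ from that of primary fibroblasts. Nothing in the labels says that the replicates came from separate cultures, so the p-values measure only the spread between these libraries.

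E2F proteins bind DNA, most of them with a DP partner, and switch genes for DNA synthesis and cell division on or off. The pocket proteins RB, p107 (Rbl1) and p130 (Rbl2) hold E2F factors in check until cyclin-dependent kinases phosphorylate them, and p107 or p130 with E2F4 and the MuvB core form the DREAM complex, which represses cell cycle genes in resting cells and after p53 activation. E2F1, E2F2 and E2F3 are classed as activators, E2F4 and E2F5 as repressors that act with pocket proteins, E2F6 as a repressor linked to Polycomb proteins, and E2F7 and E2F8 as atypical repressors that need no DP partner.

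Between 45577023 and 104120871 counts fell on genes in a library (median 71634158.5), and the shallowest library was replicate 1 of the DKO MEFs after etoposide. Values below are CPM, the count of a gene relative to the library size scaled by TMM. Of the 10 fibroblast markers, all 10 were tested, and their summed level lay between 7183 and 7334 CPM in Null control libraries, between 11701 and 12344 in DKO control, between 3826 and 3956 in Null etoposide and between 4889 and 5239 in DKO etoposide. The most abundant fibroblast marker was Vim, at a mean of 2390 CPM in Null control. The 6 epithelial markers, led by Krt19, summed to 15.8 to 17.1 CPM in Null control and 36.1 to 37.8 in DKO control. After etoposide they summed to 22.9 to 25.9 CPM in Null and 15.7 to 16.6 in DKO libraries. The 5 endothelial markers summed to 0.0615 to 0.221 CPM in Null control, 0.0543 to 0.211 in DKO control, 2.23 to 3.09 in Null etoposide and 0.914 to 1.70 in DKO etoposide, with Tek or Pecam1 the most abundant. The 7 leukocyte markers summed to 1.57 to 1.85 CPM in Null control, 1.71 to 2.75 in DKO control, 13.0 to 14.0 in Null etoposide and 3.89 to 4.88 in DKO etoposide, led by Cd68. Tie1, Adgre1 and Cd3e had 0 counts in all 6 control libraries, and Ptprc, Cdh5 and Itgam in 4 of the 6. After etoposide Ptprc reached at most 41 counts in a library and Itgam at most 38. Among the fibroblast markers Fap had at most 3 counts in each DKO control library. In both genotypes the fibroblast sums were lower and the endothelial and leukocyte sums higher in every etoposide library than in every control library. Taken singly, 9 of the 10 fibroblast markers fell with etoposide in Null MEFs at an adjusted p under 0.05 (edgeR). In DKO MEFs 8 fell and 1 rose. Of all genes tested 37.2% fell in Null MEFs, and 31.5% fell and 43.7% rose in DKO MEFs. Between the control lines 8 of the 10 were higher and 1 lower in DKO MEFs, against 33.3% and 33.4% of all genes. The epithelial sums were higher after etoposide in Null MEFs and lower in DKO MEFs. The part of these markers in the results below was not tested. In bulk libraries fewer cells of a type and less RNA per cell cannot be told apart.

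The targeted genes check the labels. Tfeb was measured at 38.9, 39.2 and 42.1 CPM in the Null control libraries and at 4.60, 6.09 and 4.68 CPM in the DKO control libraries. Every DKO library lay below every Null library, and the log2 fold change was -2.94 (SE 0.09, adjusted p = 1.05e-14, edgeR quasi-likelihood with Benjamini-Hochberg). Tfe3 was still transcribed in DKO MEFs, at 94.1, 93.1 and 91.0 CPM against 115, 110 and 114 CPM in Null MEFs, so its RNA level does not show whether the edit removed the protein. After etoposide Tfeb was at 11.4, 10.2 and 10.4 CPM in Null and at 1.92, 1.61 and 2.20 CPM in DKO libraries, again with no overlap (log2 fold change -2.46, SE 0.12, adjusted p = 5.06e-12, edgeR). Tfe3 was then at 68.5, 69.6 and 68.1 CPM in Null and at 70.7, 71.2 and 63.4 CPM in DKO libraries, which overlapped (adjusted p = 0.871, edgeR).

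RefSeq promoter windows on GRCm38.p6, 250 bases before each listed start, were found for 8 of 10 genes (not E2f4 or E2f5), as 10 windows. They were searched on both strands for the 4 spellings TTTCCCGC, TTTCGCGC, TTTGCCGC and TTTGGCGC of an E2F site, which 1.86% of 32851 promoters of the same length hold. A match was found in 3 windows, and these sequences are shown because E2F factors are known to act on genes of their own family. The windows lie at chr13:29986064-29986313 on the minus strand (E2f3), chr10:110745189-110745438 on the plus strand (E2f7) and chr2:157204535-157204784 on the minus strand (Rbl1), each ending at the annotated start of its gene. Each is printed 5′ to 3′ with the matching letters in capitals, which in E2f3 and E2f7 are the reverse complement of TTTCCCGC.

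E2f3: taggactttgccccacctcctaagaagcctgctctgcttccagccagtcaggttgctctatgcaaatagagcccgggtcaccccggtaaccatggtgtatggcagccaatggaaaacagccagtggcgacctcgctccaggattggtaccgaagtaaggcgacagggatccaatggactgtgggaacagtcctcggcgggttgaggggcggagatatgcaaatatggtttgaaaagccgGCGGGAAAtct
E2f7: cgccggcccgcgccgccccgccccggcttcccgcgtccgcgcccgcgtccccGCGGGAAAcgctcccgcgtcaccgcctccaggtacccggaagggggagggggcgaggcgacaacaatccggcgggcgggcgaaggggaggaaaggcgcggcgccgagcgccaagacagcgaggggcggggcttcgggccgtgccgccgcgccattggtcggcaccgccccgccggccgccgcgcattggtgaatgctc
Rbl1: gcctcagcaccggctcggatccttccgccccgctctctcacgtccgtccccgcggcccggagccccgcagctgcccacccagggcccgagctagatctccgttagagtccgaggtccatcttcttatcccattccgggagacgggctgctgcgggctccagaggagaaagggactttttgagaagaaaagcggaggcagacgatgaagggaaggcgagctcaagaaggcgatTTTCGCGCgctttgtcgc

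The match lay 11 to 4 bases before the start in E2f3, 198 to 191 bases before it in E2f7 and 18 to 11 bases before it in Rbl1. The letters TTTGAA of the cell cycle homology region, a MuvB contact, are in 16.0% of promoters and were found in windows of E2f2, E2f3, E2f8 and Rbl2. In E2f2 they were in the window of the start 8388 bases inside the gene and not in its other window. CACGTG, the E-box core that TFEB and TFE3 recognise, is in 6.02% of promoters and was found in 1 window, that of a start 1672 bases inside E2f3, while the longer TCACGTGA (0.785% of promoters) and the p53 half-site (7.13%) were in none of the 10 windows. The start listed for E2f1 lies 466 bases inside the annotated gene, and those listed for E2f2 lie 8388 bases inside it and 120 bases before it, so these windows do not end at the annotated start. A match is a description of letters, and its absence says only that these letters are not in the window.

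Levels were compared between genes per kilobase (kb) of merged exons, the union of all annotated exons of a gene. The transcripts present may be shorter than this union, so the order depends on the annotation. E2f4 had the highest level in all 4 groups, 44.7 ± 1.26 CPM per kb (SD, n = 3) in Null control, and Rbl1 followed there at 15.8 ± 0.173 CPM per kb. E2f2 had the lowest level in all 4 groups, from 1.04 ± 0.0428 CPM per kb in DKO control to 3.06 ± 0.0139 CPM per kb in Null etoposide (SD, n = 3 each). The order of the middle genes changed with the group. In Null control E2f3 (10.8) and E2f5 (10.6) overlapped, as did Rbl2 (4.29) and E2f8 (4.29 CPM per kb). After etoposide E2f1 overlapped Rbl1 in Null MEFs, at 15.0 and 15.6 CPM per kb, and lay above it in DKO MEFs, at 20.6 and 16.3 CPM per kb.

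**Figure D1:**
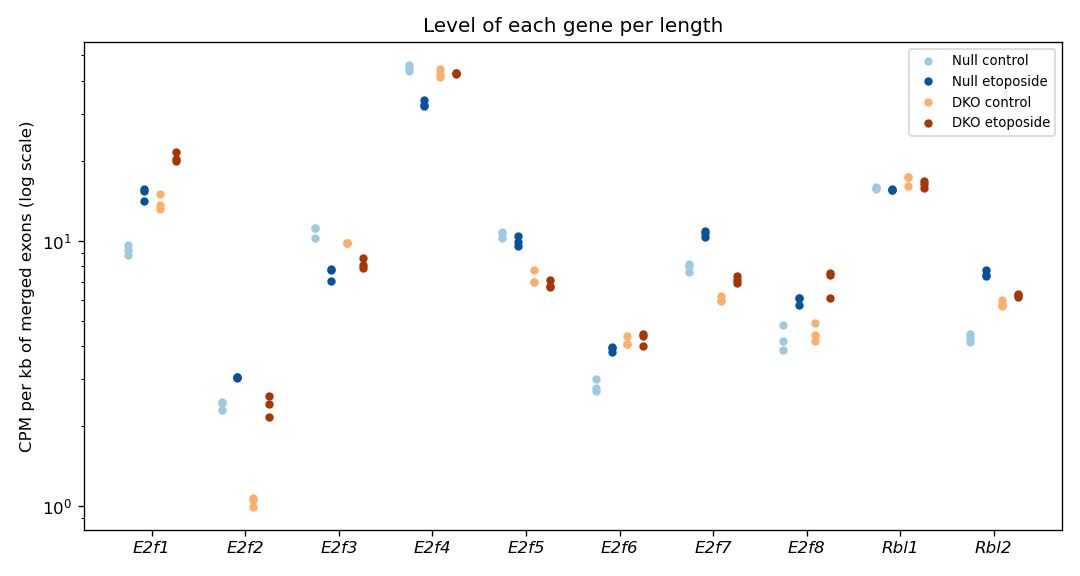
CPM per kb of merged exons on a log axis for each of the 10 genes; each point is 1 library, coloured by group. E2f4 lies highest in all 4 groups and E2f2 lowest, with DKO control libraries of E2f2 near 1.04 CPM per kb.

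The response of Null MEFs to etoposide was the reference for the others. Of the 10 genes 6 rose and 2 fell at an adjusted p under 0.05, where 42.3% of all genes tested rose and 37.2% fell, so a changed gene was the common case in this table. None of the 10 changed at least 2-fold by edgeR, DESeq2 or limma-trend, their log2 fold changes lying between -0.52 and 0.81, a size which 22.4% of all genes did upwards and 8.1% downwards. The median log2 fold change was 0.38 over the 10 genes and 0.07 over all genes tested.

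Among the activators, E2f1 was measured at 29.1, 30.4 and 27.8 CPM in Null control and at 48.5, 49.4 and 44.4 CPM after etoposide. The groups did not overlap, and the log2 fold change was 0.71 (SE 0.06, adjusted p = 3.73e-09, edgeR). E2f3, also an activator, went the other way, from 55.6, 60.5 and 60.5 CPM to 42.6, 42.2 and 38.2 CPM. All 3 etoposide libraries lay below the controls, a log2 fold change of -0.52 (SE 0.05, adjusted p = 2.68e-08, edgeR). The counts are per gene and do not separate the E2f3a and E2f3b transcripts. E2f2 rose by less than E2f1, by 0.34 (SE 0.07, adjusted p = 0.000168, edgeR).

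Rbl2, which encodes p130, the pocket protein typical of resting cells, had the largest change of the 10 genes in Null MEFs. It was measured at 31.3, 33.5 and 32.6 CPM in control libraries and at 58.4, 55.8 and 56.1 CPM after etoposide. The 2 groups were far apart, and the log2 fold change was 0.81 (SE 0.04, adjusted p = 4.60e-12, edgeR). Its relative Rbl1 was measured at 94.9, 95.4 and 93.4 CPM and then at 93.7, 93.0 and 92.8 CPM. These groups overlapped and the change did not pass the test (adjusted p = 0.605, edgeR). The ratio of Rbl1 to Rbl2 CPM was 2.92 ± 0.101 in control and 1.64 ± 0.0330 after etoposide (SD, n = 3 each). Exons of Aktip and of Gm45464 on the opposite strand cover 9.17% and 11.8% of the exon bases of Rbl2, and since the strand setting of the counting is not stated, part of its counts may belong to them.

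E2f4, the main E2F of the DREAM complex, fell from 107, 113 and 109 CPM to 79.7, 82.8 and 78.6 CPM in Null MEFs. No etoposide library reached the control range, and the log2 fold change was -0.45 (SE 0.04, adjusted p = 3.49e-09, edgeR). E2f6 rose by 0.46, E2f7, a known p53 target, by 0.42, and E2f8 by 0.48 on the log2 scale. Exons of Gm2788 on the opposite strand cover 11.2% of those of E2f8, so part of its counts may belong to that gene. E2f5 did not pass the test, with a log2 fold change of -0.08 (adjusted p = 0.196, edgeR). The sign of Rbl1 turned positive with DESeq2 size factors (0.024), and those of E2f5 and Rbl1 with library size alone as the scaling, which moved the median of all genes by 0.17 (log2) in this comparison. Rbl1 then passed the test as higher (0.15), and the fall of E2f4 was smaller (-0.28). That scaling called 7806 genes higher and 4396 lower, against 6435 and 5656.

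**Figure D2:**
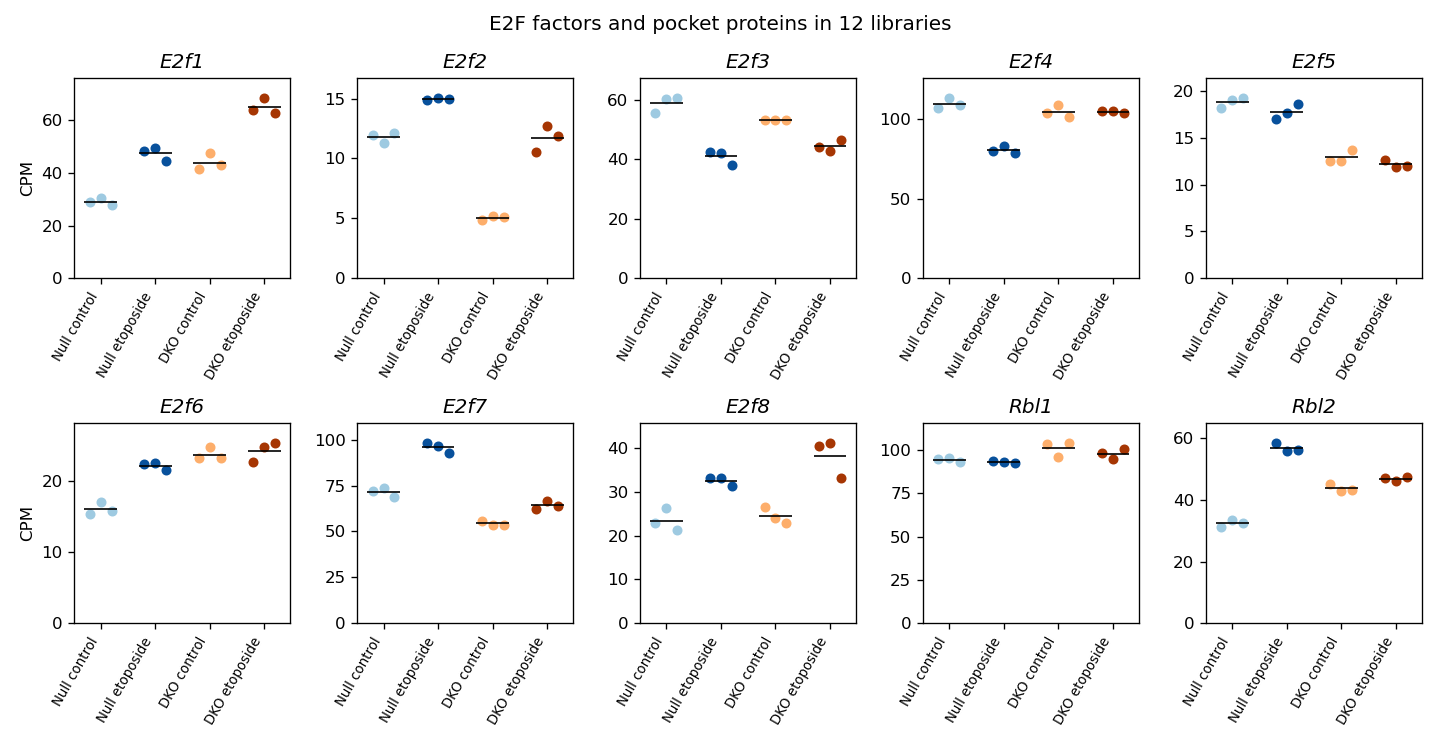
CPM of each gene in the 12 libraries, 1 point per library, with the group mean as a line and every axis starting at 0. E2f2 is lowest in DKO control, and Rbl2 and E2f7 are highest in Null etoposide.

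In TFEB/TFE3 DKO MEFs etoposide raised 5 of the 10 genes and lowered 1, against 43.7% and 31.5% of all genes tested. E2f2 was the 1 gene that rose at least 2-fold, a size that 17.9% of all genes reached upwards and 7.93% downwards. The median log2 fold change was 0.07 over the 10 genes and 0.14 over all genes, or 0.34 and 0.41 with library size alone.

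E2f2 was measured at 4.83, 5.23 and 5.13 CPM in DKO control and at 10.5, 12.7 and 11.8 CPM after etoposide. The treated libraries were all above the controls, and the log2 fold change was 1.21 (SE 0.08, adjusted p = 2.24e-10, edgeR). E2f1 rose from 41.5, 47.4 and 42.9 CPM to 63.9, 68.3 and 62.8 CPM, again with no overlap, by 0.56 (SE 0.06, adjusted p = 7.59e-08, edgeR). E2f8 rose by 0.63 and E2f7 by 0.24, while E2f3 fell by 0.26 on the log2 scale. E2f7 was at 0.52 and E2f3 at 0.016 with library size alone.

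Rbl2 was measured at 45.3, 42.9 and 43.3 CPM in DKO control and at 47.1, 46.2 and 47.6 CPM after etoposide. The treated libraries lay just above the controls, and the log2 fold change was 0.10 (SE 0.04, adjusted p = 0.0330, edgeR). This call was lost when any of 8 single libraries was left out: Null control replicate 1 (0.09), DKO control replicates 1 (0.10), 2 (0.05) and 3 (0.09), Null etoposide replicate 2 (0.09), and DKO etoposide replicates 1 (0.08), 2 (0.10) and 3 (0.08). It was also lost with DESeq2 (0.083), its size factors (0.083), no filter on low counts (0.061), without Rn45s, Rmrp and Rpph1 (0.077) and with only the 6 libraries compared (0.071), so that DESeq2 raised 4 of the 10 genes in place of 5. Library size alone moved it the other way, to 0.37 (adjusted p = 1.94e-07, edgeR). E2f4 was at 104, 109 and 101 CPM in control and 105, 105 and 104 CPM after etoposide, which overlapped (log2 fold change -0.0022, adjusted p = 0.959, edgeR). E2f5, E2f6 and Rbl1 did not pass the test either, though Rbl1 did without DKO control replicate 2 (-0.11). Library size alone moved the median of all genes by 0.27 (log2) and called 9316 genes higher and 3004 lower, against 6645 and 4790. It raised 9 of the 10 genes and lowered 0 (also 0 at an unadjusted p under 0.05, while DESeq2 lowered 1), with positive values for E2f3, E2f4, E2f5 and Rbl1, so for these 4 genes the direction in DKO MEFs rests on the scaling, and with it E2f6 passed the test (0.31).

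**Figure D3:**
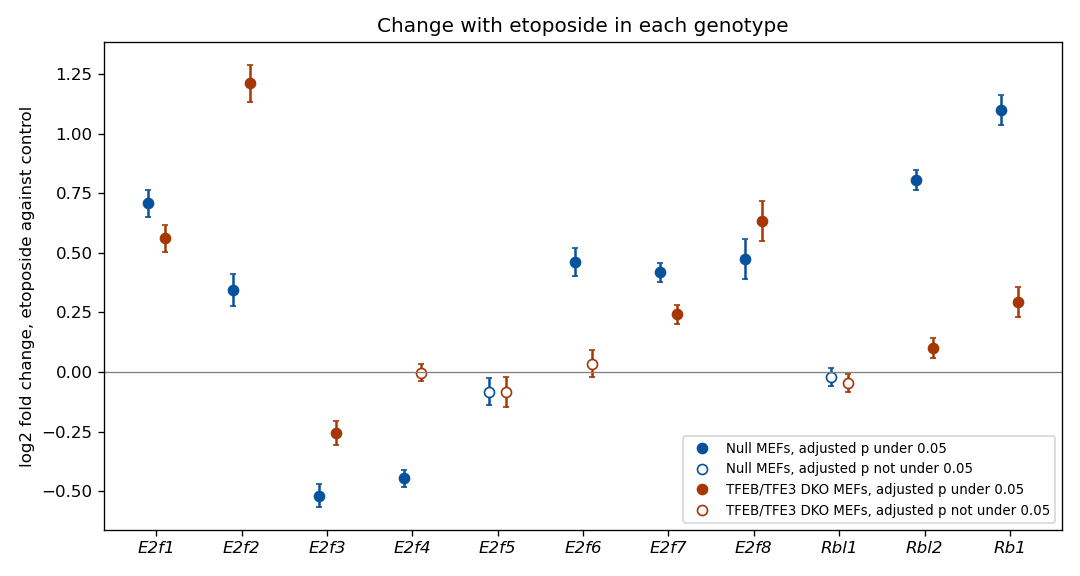
Log2 fold change with etoposide and its standard error in Null and TFEB/TFE3 DKO MEFs for the 10 genes and Rb1; filled points have an adjusted p under 0.05. E2f2 rises more in DKO MEFs (1.21 against 0.34), and Rbl2 (0.10 against 0.81) and Rb1 (0.29 against 1.10) rise less. With library size alone as the scaling E2f3, E2f4, E2f5 and Rbl1 lie above 0 in DKO MEFs and E2f5 and Rbl1 in Null MEFs, and Rbl2 and Rb1 are at 0.37 and 0.57 in DKO MEFs.

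Whether the response differed between the genotypes was tested by the interaction. Of the 10 genes 3 had a more positive response in DKO MEFs and 3 a more negative one, against 29.6% and 24.4% of all genes tested. None reached a 2-fold difference by edgeR, DESeq2 or limma-trend, with values between -0.71 and 0.87, as 4.2% and 8.41% of all genes did. E2f2 differed by 0.87 (SE 0.10, adjusted p = 1.67e-06), E2f4 by 0.44 (SE 0.05, adjusted p = 1.02e-06) and E2f3 by 0.26 (SE 0.07, adjusted p = 0.00384) in edgeR's quasi-likelihood test. In the other direction Rbl2 differed by -0.71 (SE 0.06, adjusted p = 1.46e-08), E2f6 by -0.43 (SE 0.08, adjusted p = 0.000207) and E2f7 by -0.18 (SE 0.06, adjusted p = 0.0122) in the same edgeR test. The E2f7 call was lost with library size alone, at -0.07, a scaling that moved the median of all genes by 0.10 (log2) and called 5734 genes higher and 3055 lower, against 4507 and 3719. E2f1, E2f5, E2f8 and Rbl1 did not pass the test, which does not show that their responses were alike. E2f1, at -0.15 here, passed it with DESeq2 (-0.21), with DESeq2 size factors in edgeR (-0.21) and with a filter at a mean of 1 CPM (-0.20), so that by DESeq2 the response was more negative for 4 genes in place of 3. Over all alternatives the E2f1 value lay between -0.21 and -0.040. E2f8 was at 0.16 here and between 0.075 and 0.25 with 1 library left out. It passed the test without DKO etoposide replicate 3 (0.25). In that library E2f8 was lowest of its group, at 33.0 CPM against 40.5 and 41.0 CPM.

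Without etoposide the lines already differed. DKO MEFs had 4 of the 10 genes higher and 4 lower than Null MEFs, against 33.3% and 33.4% of all genes. E2f2 was the 1 gene lower by at least 2-fold, a size reached by 7.67% of all genes upwards and 10.8% downwards. It was measured at 11.9, 11.3 and 12.1 CPM in Null control against 4.83, 5.23 and 5.13 CPM in DKO control. These ranges were far apart, with a log2 fold change of -1.21 (SE 0.08, adjusted p = 2.71e-10, edgeR). The ratio of E2f1 to E2f2 CPM was thus 2.48 ± 0.202 in Null and 8.67 ± 0.361 in DKO control (SD, n = 3 each).

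E2f5, a repressor that acts with pocket proteins, was measured at 18.2, 19.0 and 19.2 CPM in Null control and at 12.5, 12.5 and 13.8 CPM in DKO control. All DKO libraries were lower, by a log2 fold change of -0.54 (SE 0.06, adjusted p = 3.11e-07, edgeR). E2f7 was lower by -0.40, while E2f1 (0.60), E2f6 (0.56) and Rbl2 (0.43) were higher on the log2 scale. The calls of E2f3 (-0.14) and Rbl1 (0.10) were smaller and depended on single libraries. E2f3 lost its call without Null control replicate 2 (-0.12) or 3 (-0.12), but was at -0.265 with library size alone, and Rbl1 without Null control replicate 1 (0.10) or 3 (0.09) or DKO control replicate 1 (0.07) or 3 (0.08), and also with no filter (0.09) or after thinning (0.09). E2f4 did not pass the test with all libraries but did without DKO control replicate 2 (-0.10). Library size alone moved the median of all genes by -0.12 (log2), called 3977 genes higher and 6393 lower against 5066 and 5091, and turned the signs of Rbl1 and E2f8, while E2f4 passed the test with it, at -0.19 against -0.065.

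After etoposide 5 of the 10 genes were higher and 4 lower in DKO than in Null MEFs, against 37.5% and 36.6% of all genes. None differed by 2-fold by edgeR, DESeq2 or limma-trend, with values between -0.57 and 0.45, as 5.2% of all genes did upwards and 17% downwards. E2f7 was measured at 98.0, 96.5 and 92.7 CPM in Null etoposide and at 62.4, 66.4 and 64.0 CPM in DKO etoposide. The DKO libraries were all lower, by a log2 fold change of -0.57 (SE 0.04, adjusted p = 3.49e-10, edgeR). E2f5 (-0.55), E2f2 (-0.35) and Rbl2 (-0.27) were also lower, and E2f1 (0.45) and E2f4 (0.38) higher, on the log2 scale.

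The other 3 higher calls, E2f8 (0.23, adjusted p = 0.0200), E2f6 (0.13, adjusted p = 0.0379) and E2f3 (0.12, adjusted p = 0.0391), lay close to the threshold of edgeR's test, and with DESeq2 none of the 3 passed (0.17, 0.072 and 0.059), which left 2 genes higher. E2f8 lost its call without Null etoposide replicate 3 (0.20) or DKO etoposide replicate 1 (0.16) or 2 (0.15), and its groups overlapped. E2f6 lost it without DKO control replicate 1 (0.11) or 2 (0.11), Null etoposide replicate 1 (0.14), 2 (0.14) or 3 (0.12), or DKO etoposide replicate 2 (0.10) or 3 (0.09). E2f6 also lost its call with limma-trend (0.13), which left 4 genes higher, and after thinning (0.083). E2f3 lost it without DKO control replicate 1 (0.10) or 2 (0.10), Null etoposide replicate 3 (0.08), or DKO etoposide replicate 1 (0.11) or 3 (0.07). Of 25 alternatives E2f8 lost its call in 6, E2f6 in 16 and E2f3 in 13. The comparisons share libraries, so their values are given side by side only.

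The remaining pocket protein gene, Rb1, was measured at 20.6, 23.7 and 20.4 CPM in Null control and 47.7, 47.8 and 42.9 CPM after etoposide. In DKO MEFs it was at 24.1, 23.1 and 25.5 CPM and then at 30.2, 30.2 and 28.8 CPM. It rose in both lines with no overlap, by 1.10 and 0.29 on the log2 scale, and the difference of -0.81 passed the test (SE 0.09, adjusted p = 5.19e-07, edgeR). Exons of Rcbtb2 and Lpar6 on the opposite strand cover 8.11% and 6.78% of its exon bases. Of the DP partners, Tfdp2 was higher in DKO control by 0.62 and Tfdp1 rose with etoposide in Null MEFs by 0.20. Tfdp2 fell with etoposide in DKO MEFs, at a log2 fold change of -0.31, and the interaction was negative for both, at -0.19 for Tfdp1 and -0.26 for Tfdp2. With library size alone 1 DP gene rose and 0 fell in DKO MEFs (also 0 at an unadjusted p under 0.05, against 1 by DESeq2), with Tfdp2 at -0.032, and the interaction passed for Tfdp2 (-0.16) and not for Tfdp1 (-0.080). That scaling also gave 0.37 for the rise of Tfdp1 in Null MEFs and 0.57 for that of Rb1 in DKO MEFs.

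For the lists that follow, 42.3% of all genes tested rose and 37.2% fell with etoposide in Null MEFs, and 43.7% rose and 31.5% fell in DKO MEFs. Scaled by library size alone, 7806 of 15220 genes rose and 4396 fell in Null MEFs, and 9316 rose and 3004 fell in DKO MEFs. Counts near these shares say nothing particular of a list. Of the 8 genes of the MuvB core with its MYB partners and Foxm1, 2 rose and 4 fell with etoposide in Null MEFs, and 3 rose and 2 fell in DKO MEFs. With library size alone these were 3 and 3, and 6 and 2. Mybl1, a MYB family activator, was measured at 19.4, 17.7 and 18.0 CPM in Null control and at 169, 179 and 161 CPM after etoposide, a log2 fold change of 3.20 (SE 0.05, adjusted p = 1.99e-18, edgeR). In DKO MEFs it was at 44.4, 43.9 and 46.7 CPM in control and at 92.7, 92.0 and 98.9 CPM after etoposide. It rose there by 1.07, from a higher control level than in Null MEFs. The interaction was -2.13 (SE 0.07, adjusted p = 1.32e-13, edgeR). Foxm1, an activator of mitotic genes, fell by 0.42 in Null and by 0.46 in DKO MEFs on the log2 scale, or by 0.25 and 0.19 with library size alone.

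Of the 9 Polycomb partners of E2F6, 7 fell in Null MEFs, 2 (L3mbtl2 and Rnf2) did not pass the test and 0 rose by edgeR (also 0 at an unadjusted p under 0.05, and 0 by DESeq2 and limma-trend, but 2 with library size alone). The largest falls were those of Rybp (-1.05), Mga (-0.75) and Max (-0.74). In DKO MEFs 4 rose and 3 fell, or 7 and 2 with library size alone, and the interaction was positive for 7 of 9, where it was positive for 29.6% of all genes, including Max (0.86), Pcgf6 (0.84) and Ring1 (0.63). The median interaction was 0.45 over the 9 genes and 0.05 over all genes. The control levels already differed, with 5 of the 9 lower and 1 higher in DKO MEFs, against 33.4% and 33.3% of all genes. Mean control levels in DKO and Null MEFs were 37.2 and 51.6 CPM for Max and 27.9 and 43.4 CPM for Pcgf6. For Ring1 they were 17.5 and 20.8 CPM.

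Of the 16 cyclin-kinase regulators of pocket proteins, 4 rose and 8 fell with etoposide in Null MEFs, and 7 rose and 9 fell in DKO MEFs. With library size alone these were 7 and 7, and 7 and 8. Cdkn1a, which encodes the kinase inhibitor p21 and is a classical p53 target, was measured at 71.5, 65.6 and 60.1 CPM in Null control and at 498, 511 and 510 CPM after etoposide. In DKO MEFs it was at 38.4, 39.8 and 40.7 CPM and then at 242, 254 and 227 CPM. It rose in every treated library, by 2.94 in Null and 2.60 in DKO MEFs on the log2 scale. Ccnd1, the cyclin that starts pocket protein phosphorylation with Cdk4 or Cdk6, was lower in DKO than in Null MEFs by 2.62 in control, at 32.7, 29.1 and 27.0 CPM against 182, 181 and 182 CPM. Cdk6 was lower in DKO control too, at a log2 fold change of -2.36. Of the 3 genes for E2F protein degradation, Ccnf (0.99) and Skp2 (0.33, or 0.50 with library size alone) rose and Fzr1 fell by 0.73 in Null MEFs.

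Known G1/S targets of E2F and known G2/M targets of MuvB complexes are given side by side, and the difference between the lists was not tested. Of 33 G1/S genes 22 rose and 7 fell in Null MEFs and 26 rose and 3 fell in DKO MEFs, with median log2 fold changes of 0.35 and 0.41. Of 26 G2/M genes 2 rose and 20 fell in Null MEFs and 0 rose and 21 fell in DKO MEFs, with medians of -0.44 and -0.53. Over all genes the medians were 0.07 and 0.14. The 0 is from edgeR, and it was also 0 at an unadjusted p under 0.05 and by DESeq2 and limma-trend. With library size alone 25 G1/S genes rose and 2 fell in Null MEFs and 30 and 1 in DKO MEFs, while 6 G2/M genes rose and 16 fell in Null MEFs and 7 and 16 in DKO MEFs. The medians were then 0.52 and 0.68 for the G1/S genes, -0.27 and -0.25 for the G2/M genes and 0.23 and 0.41 for all genes. Among the G1/S genes the cyclin E genes Ccne2 (1.79) and Ccne1 (1.46) and the mismatch repair gene Msh6 (1.55) rose most in Null MEFs, and Pola1, a subunit of DNA polymerase alpha, fell by 1.07. Among the G2/M genes Prc1 (-1.29) and Nusap1 (-1.23), both spindle proteins, and Cenpf (-1.16), a kinetochore protein, fell most in Null MEFs.

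The interaction, positive for 29.6% and negative for 24.4% of all genes, was positive for 10 and negative for 8 of the 33 G1/S genes and positive for 7 and negative for 7 of the 26 G2/M genes, with medians of 0.02 and 0.0053 against 0.05 over all genes. The sign of both medians changed with the scaling. With DESeq2 size factors, where 3797 of 15220 genes were positive and 4192 negative and the median of all genes was -0.0155, 9 G1/S genes were positive and 9 negative (median -0.046) and 4 G2/M genes positive and 11 negative (median -0.058). Scaled by library size alone, where 5734 genes were positive and 3055 negative and the median of all genes was 0.15, 16 G1/S genes were positive and 6 negative (median 0.12) and 11 G2/M genes positive and 6 negative (median 0.11). After etoposide 37.5% of all genes were higher and 36.6% lower in DKO than in Null MEFs, with a median of -0.0045. Of the G1/S genes 16 were higher and 14 lower (median -0.0092), and of the G2/M genes 10 were higher and 13 lower (median -0.09). With DESeq2 size factors 5072 of all genes were higher and 6096 lower (median -0.065), against 11 and 15 of the G1/S genes (median -0.069) and 10 and 15 of the G2/M genes (median -0.15). With TMM scaling the lowest G2/M genes in this comparison were Cdc20 (-1.19) and Cenpe (-1.11).

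**Figure D4:**
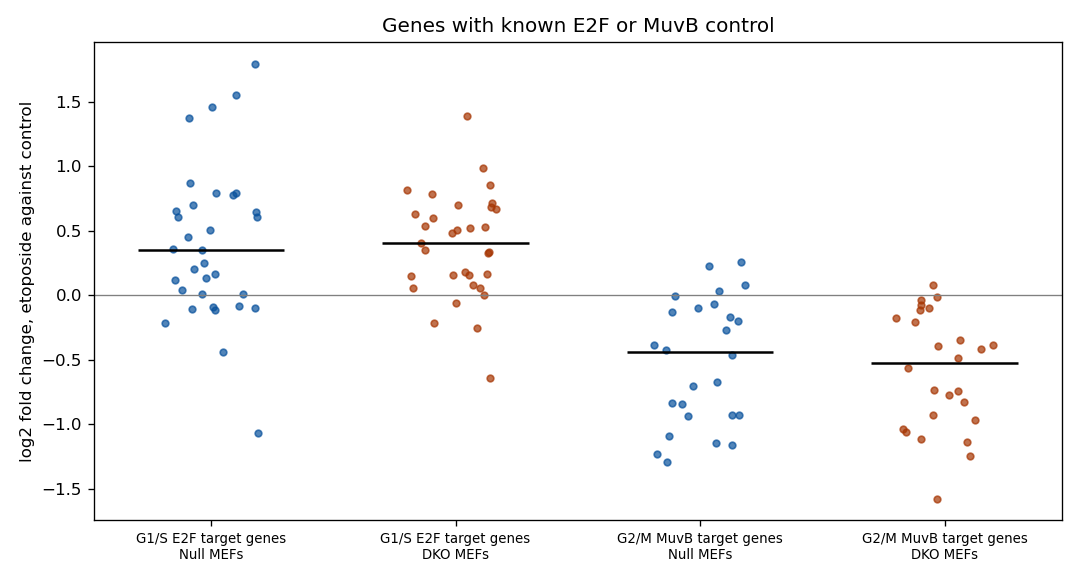
Log2 fold change with etoposide of 33 G1/S genes and 26 G2/M genes in Null and TFEB/TFE3 DKO MEFs; each point is 1 gene and the line is the median. The medians are 0.35 and 0.41 for the G1/S genes and -0.44 and -0.53 for the G2/M genes.

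Over the 12 libraries, which fall into 4 groups, Pearson's r of log2 CPM describes which genes had a similar pattern in the 9352 genes whose average CPM was 10 or more. The nearest were Ticrr for E2f1 (r = 0.99), Cdca5 for E2f2 (0.99), Impdh1 for E2f7 (0.99) and Pard6g for Rbl2 (0.99). Rbl1 had the lowest r with its nearest gene, Snx10 (0.91). Among the 10 genes the highest r was that of E2f1 and E2f6 (0.88) and the lowest that of E2f3 and Rbl2 (-0.89). These values follow the 4 group means and carry no test.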

How the data were processed

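The authors deposited 1 table of raw counts per gene symbol. Per the study's methods, stranded libraries of RNA depleted of ribosomal RNA were read as pairs, aligned with HISAT2 and counted with HTSeq on GENCODE genes. The submitters' processing notes name HISAT2, featureCounts and mm10, and the 5 summary lines of the table are of the kind HTSeq writes. Versions and the strand setting are not given in the sources used here. The 5 summary lines entered neither library sizes nor tests. Genes took 53.4 to 63.1% of each library's total, and the remainder had no feature (20.2 to 27.3%), more than 1 alignment (15.9 to 20.5%) or an ambiguous gene (0.428 to 0.513%). The share with no feature was 22.5 to 24.2% in Null control and 25.1 to 27.3% in Null etoposide libraries. In DKO libraries it was 20.2 to 21.1% in control and 21.2 to 22.3% after etoposide. Its part in the results was not tested.

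All libraries were fitted by edgeR 4.0.16 under R 4.3.3 (filterByExpr with 4 groups, TMM factors of 0.884 to 1.09, glmQLFit and glmQLFTest) in 1 model of 12 libraries, with Benjamini-Hochberg adjustment over 15220 genes in each of 5 comparisons and a threshold of 0.05. The option of glmQLFit was not fixed in the plan. Results for these genes had been seen with the legacy version, and 4 versions (newer or legacy, each with and without robust estimates) had been counted on 1 comparison, before the newer version without robust estimates was chosen to match earlier processing of this table; the other 3 are given as alternatives chosen after seeing the data. Standard errors were derived by dividing the size of the log2 fold change by the square root of F. Pairs of replicates differed beyond sampling noise, with a chi-square of 10.02 to 22.1 per degree of freedom. An exact permutation test of 3 against 3 libraries cannot go below 0.1.

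The members and lists were chosen with earlier results of these data known. Named genes are the members, Tfeb, Tfe3, Rb1, the DP genes, up to 3 genes each way with the largest called changes per list, and the genes most like each member. Lists are described by counts and medians, and the values of 1 marker gene are not reported here. Alternatives were DESeq2 1.42.0, limma-trend 3.58.1, DESeq2 size factors, library size alone, no filter, a mean of at least 1 CPM, thinning, a replicate block, leaving out Rn45s, Rmrp and Rpph1, each library left out, and only the 6 libraries compared. Exon lengths and positions are from GENCODE M21 on GRCm38. Promoter sequences are from RefSeq; protein sequences were not analysed here.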

Additional observations from a re-analysis of the deposited data

Results flagged for a closer look

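The response to etoposide differed between the genotypes for 6 of the 10 genes by the interaction term of edgeR's quasi-likelihood model. The difference of DKO from Null MEFs was 0.87 for E2f2, 0.44 for E2f4 and 0.26 for E2f3, and -0.71 for Rbl2, -0.43 for E2f6 and -0.18 for E2f7 on the log2 scale. An interaction also passed the threshold for 29.6% of all genes upwards and 24.4% downwards. DESeq2, and edgeR with DESeq2 size factors, added E2f1 (-0.21 with each), for 7 genes, and with library size alone the call of E2f7 was lost, for 5 genes. The E2f1 value lay between -0.21 and -0.040 over all alternatives. The cause of these differences was not tested.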

How the results depend on the processing

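Of 1240 values of single genes under the alternatives, 1146 kept direction and side of the threshold, 57 lost it, 8 passed it and 29 changed sign; the causes were not tested. With library size alone the log2 fold changes turned to 0.085 for E2f5 and 0.15 for Rbl1 (etoposide, Null MEFs), 0.016 for E2f3, 0.27 for E2f4, 0.19 for E2f5 and 0.23 for Rbl1 (etoposide, DKO MEFs), -0.054 for E2f8 and -0.023 for Rbl1 (DKO against Null, control) and 0.10 for E2f5 and 0.080 for Rbl1 (interaction). Rbl1 in Null MEFs turned to 0.024 with DESeq2 or its size factors and 0.064 with a mean of at least 1 CPM, a filter that gave 0.0030 for E2f5 there and 0.034 for E2f4 in DKO MEFs. E2f4 in DKO MEFs turned to 8e-04 after thinning and E2f6 there to -0.0042 with no filter. The E2f5 interaction turned to 0.0021 with limma-trend, 0.0016 after thinning and 1.6e-05 with either legacy fit, versions chosen after seeing the data. Leaving out 1 library gave -0.044 to 0.048 for it, -0.0095 to 0.059 for E2f6 in DKO MEFs and -0.00069 to 0.16 for E2f8 between control lines.

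Of the counts of genes, 233 were within 1.5 times and 15 were not. Genes higher in DKO than Null MEFs after etoposide numbered 5, but 2 with DESeq2, its size factors or the stricter filter, 3 with library size alone, no filter or without Rn45s, Rmrp and Rpph1, and 2 to 5 with 1 library left out. Etoposide in DKO MEFs raised 9 genes and lowered 0 with library size alone, and lowered 1 to 2 with 1 library left out. The E2F site was in 2 windows of 100 bases, against 3 of 250.

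Same-numbered libraries showed little shared deviation (correlations -0.03 to 0.04, 8 of 18 highest with their own number). Between Null and DKO etoposide libraries they were 0.024, 0.016 and 0.023, each highest with its own number. No clear pairing by number was seen, which with 3 libraries per group does not show that there was none. With the replicate block the 5 genes became 4, as E2f3 missed the threshold (adjusted p = 0.0525, range over alternatives 0.0258 to 0.334), and the 9 other counts were 6 and 2, 5 and 1, 4 and 4, 4, and 3 and 3, as without it.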
